A study of Mus musculus with 88 samples.

Results

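The genes described here are 34 genes of glycolysis, of lactate handling and of the response to low oxygen, chosen by name for what their products do. They comprise 25 genes of the glycolytic and lactate pathway and 9 genes of the hypoxia factor and its response. All 34 passed the filter on low counts among the 18361 genes tested in the mesoderm table and the 19261 tested in the endoderm table, and all 34 were present among the 26007 genes of the bulk embryoid body table and the 15830 genes of the single-cell table.

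Glycolysis converts glucose to pyruvate in the cytosol and yields ATP without oxygen, and lactate dehydrogenase then turns pyruvate into lactate, which leaves the cell through monocarboxylate transporters. The alpha subunit of the hypoxia-inducible factor, encoded by Hif1a, is degraded in normal oxygen after prolyl hydroxylation and accumulates in low oxygen, where it binds a short DNA element and raises transcription of many glycolytic genes. Mouse embryonic stem cells (ESCs) are known for a high rate of glycolysis, and the balance between glycolysis and mitochondrial respiration shifts as they leave pluripotency.

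The study compared wild-type (WT) mouse ESCs with cells lacking Mtf2, Jarid2 or Eed, which encode subunits of Polycomb repressive complex 2, during exit from pluripotency. In 2 directed series, monolayers of WT cells and of the Mtf2 and Jarid2 nulls, all labelled strain E14, went from serum + LIF medium into Activin A, CHIR99021 and FGF2, with BMP4 for mesoderm, and then into lineage medium. Bulk RNA was taken undifferentiated (UD) and at 5 h, 24 h and 48 h, with 2 libraries per genotype and time and 24 per series. In bulk embryoid bodies (EBs), cell aggregates that form all germ layers, the labelled Mtf2, Jarid2 and Eed null lines stood beside the matched WT lines Pcl1-3 WT, JM8 and J1 at days 0, 2, 4 and 7, with 1 sample per line and day. The day 0 columns of that table are named as monolayers and the later ones as EBs. Single cells sorted from EBs of pooled culture plates gave 16 libraries, 1 for each genotype (WT and the nulls of Mtf2, Jarid2 and Eed, all labelled E14) at days 0, 4, 7 and 10. The study describes its day 0 cells as undifferentiated. The E14 line is of 129/Ola background and the Mtf2 null is a gene-trap line. The study matches the null lines with WT lines other than E14, so genotype and parental line cannot be told apart in the directed and single-cell comparisons. The same holds for the labelled Mtf2 and Jarid2 null EBs, as described with the EBs below. The study describes the directed libraries as technical duplicates, so p-values there measure the spread between these libraries only.

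Several checks bear on every value below. Library totals ranged from 9111880 to 16898264 counts in the mesoderm series and from 9889592 to 16372804 in the endoderm series. Mtf2 was at 30.2 to 38.2 CPM (counts scaled to a common library total) in the Mtf2 null libraries of the mesoderm series and at 31.1 to 36.8 CPM in those of the endoderm series, below every other directed library. Jarid2 did not separate the groups, at 189 to 622 CPM in the labelled Jarid2 null libraries of the mesoderm series against 318 to 661 in WT, so those libraries are called by their label throughout. Undifferentiated libraries with the same number in the 2 directed series differed by 1.67 to 2.89 times the sampling variance (median 2.41), against 3.37 to 8.07 (median 6.51) for replicates of one series, so the UD values of the mesoderm and endoderm series are not treated as independent of each other. At 48 h the summed level of 4 definitive endoderm markers was 0.866 to 0.942 CPM in WT of the endoderm series, near 0, while the 6 pluripotency markers still summed to 1165 to 1253 CPM there and 1500.0 to 1532 CPM in the mesoderm series.

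The response element recognised by the hypoxia-inducible factor has the core ACGTG or GCGTG. In the 250 bases before the start site, 37 of 46 RefSeq promoter windows of 32 members (80.4%) held at least 1 of these cores on either strand, against 38.6% of the 32851 windows of all genes, and 20 of the 46 (43.5%) held 2 or more, against 13.7%. The palindrome CACGTG, which holds a core on each strand, was counted once. Both cores contain a CG pair, and the windows of all genes were not matched to those of the members in base composition. The part of base composition in the gap between these shares was not tested. Several members entered with more than 1 window, some of them overlapping. By gene, 29 of the 32 members with a window had a match in at least 1 window. Eno2, Tpi1 and Gpi1 had none, although Eno2 and Tpi1 also fell at 5 h in both directed series. Egln3, which fell as well, had 1 match. Any relation between the cores and the fall was not tested. The 160 bases before the start site of 6 members, shown because these genes fell at 5 h in both directed series and hold several cores, read as follows in GRCm38.p6, 5′ to 3′ on the strand of the gene, with the cores of either strand in capitals.
Slc2a1 (chr4:119108585-119108744, plus strand): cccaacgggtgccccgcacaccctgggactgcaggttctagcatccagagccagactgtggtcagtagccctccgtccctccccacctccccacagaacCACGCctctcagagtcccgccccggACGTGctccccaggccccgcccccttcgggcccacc
Pgk1 (chrX:106186940-106187099, plus strand): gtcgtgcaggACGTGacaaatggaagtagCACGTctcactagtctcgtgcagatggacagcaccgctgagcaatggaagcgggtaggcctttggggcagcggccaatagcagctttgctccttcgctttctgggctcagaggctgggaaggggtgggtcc
Ldha (chr7:46845644-46845803, plus strand): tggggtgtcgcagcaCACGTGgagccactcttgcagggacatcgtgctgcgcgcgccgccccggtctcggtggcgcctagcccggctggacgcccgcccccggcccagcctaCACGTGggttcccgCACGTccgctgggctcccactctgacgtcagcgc
Slc16a3 (chr11:120948907-120949066, plus strand): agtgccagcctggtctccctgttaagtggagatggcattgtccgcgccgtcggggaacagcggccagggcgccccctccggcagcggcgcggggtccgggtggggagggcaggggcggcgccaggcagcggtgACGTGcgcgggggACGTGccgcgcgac
Bnip3 (chr7:138909507-138909666, minus strand): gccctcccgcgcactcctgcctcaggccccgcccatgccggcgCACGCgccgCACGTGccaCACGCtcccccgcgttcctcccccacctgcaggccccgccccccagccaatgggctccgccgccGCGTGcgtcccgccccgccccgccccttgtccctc
P4ha1 (chr10:59323136-59323295, plus strand): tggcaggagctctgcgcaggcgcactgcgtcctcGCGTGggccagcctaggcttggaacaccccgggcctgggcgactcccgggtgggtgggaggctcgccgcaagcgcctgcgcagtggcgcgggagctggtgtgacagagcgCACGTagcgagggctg
A match is a string of letters in a window and says nothing on whether the factor was bound in these cells.

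Per kilobase of annotated exon, a scale for setting genes beside each other, the members spanned a wide range in WT UD cells. The divisor was the annotated exon length of the gene, 5001 bases for Pkm and 4133 for Gapdh. Their transcripts used to search for near-identical copies are shorter, at 2432 and 1420 bases. Pkm, which encodes pyruvate kinase, was highest among the members as counted, at 575 CPM per kilobase in the mesoderm series and 551 in the endoderm series. Gapdh was at 514 and 505 and Pgk1 at 394 and 417. The order among the highest members is uncertain because it depends on the length used. Some counts of Gapdh, Pgk1 and Eno1 also lie on near-identical copies. Eno1 was at 190.1 and its copy Eno1b at 589 CPM per kilobase in the mesoderm series. That gap comes mostly from their exon lengths of 5379 and 1877 bases, since before division they were at 1023 and 1105 CPM. Of the 2 glucose transporters, Slc2a1 was at 136 and Slc2a3 at 129.5 CPM per kilobase in the mesoderm series, which differ by less than the spread between libraries. Among the hypoxia-response genes Bnip3 was highest, at 56.0 and 57.2, and Car9, a carbonic anhydrase induced by low oxygen in many cells, was lowest of all members at 0.581 and 0.492. Car9 stayed at or below 1.82 CPM in every directed library.

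In WT cells, the first question was how the pathway changed on leaving serum + LIF. Between UD and 5 h, 12 of the 34 members fell in the mesoderm series and 14 in the endoderm series, and no member rose. A member was called when the log2 fold change exceeded 1 in size and the adjusted p was under 0.001 in edgeR's quasi-likelihood test with Benjamini-Hochberg adjustment over all genes tested. Among all genes, 4.13% were called in the mesoderm series and 2.1% in the endoderm series, in either direction. The median log2 fold change of the members was -0.71 against -0.076 for all genes in the mesoderm series and -0.77 against -0.051 in the endoderm series. The UD cells were in serum + LIF and the 5 h cells in differentiation medium, so time and medium cannot be told apart. The 6 pluripotency markers summed to 2126 to 2590.2 CPM at UD and 2706 to 2720.0 CPM at 5 h in the mesoderm series.

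**Figure D1:**
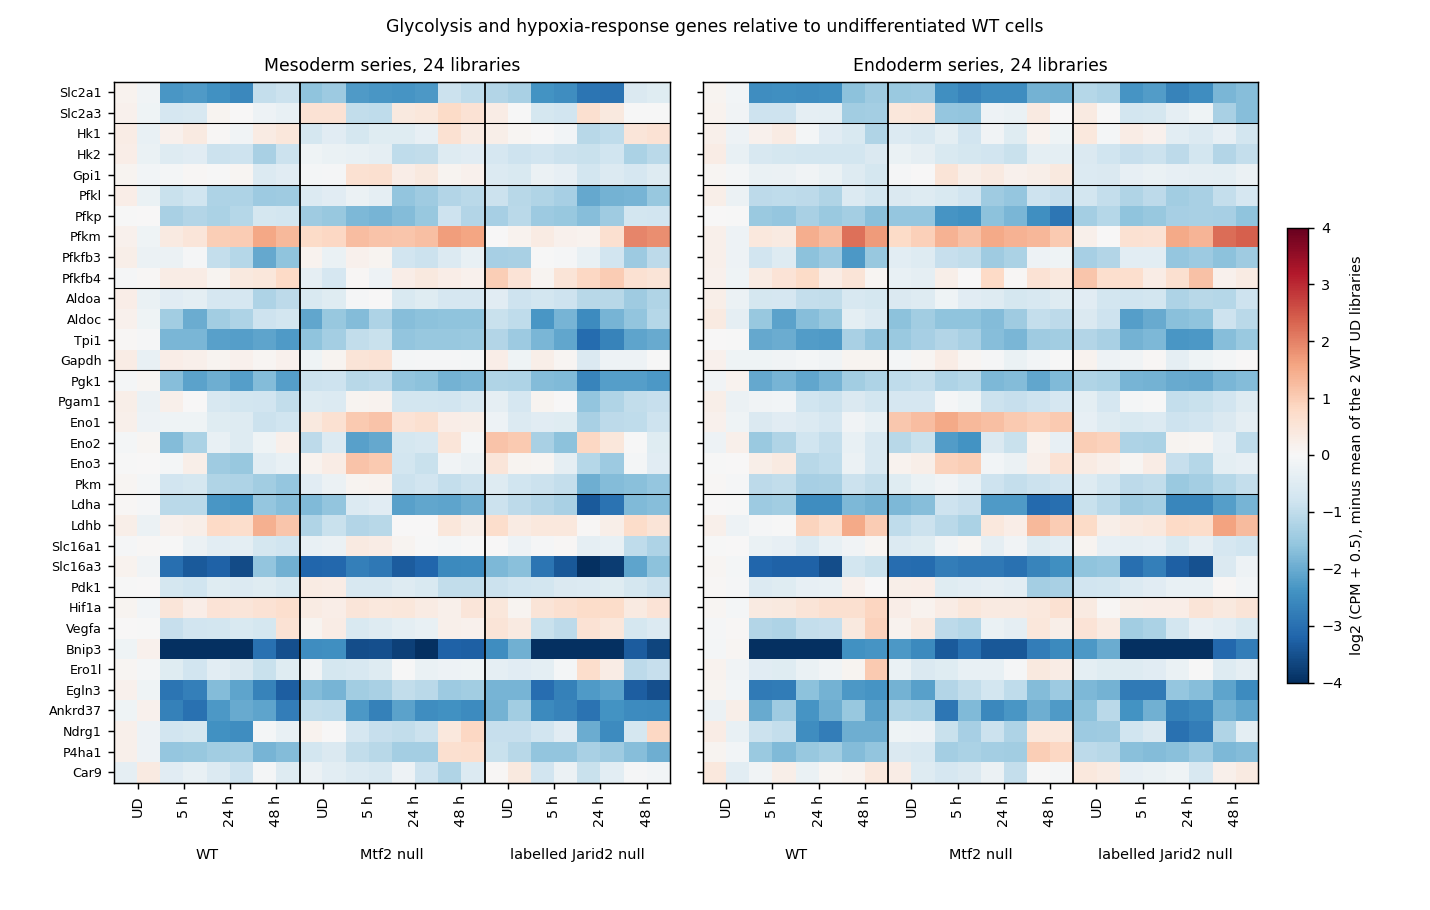
Heat map of the 34 members (rows, by role) in the libraries of both directed series (columns, by genotype and time). Colour gives log2(CPM + 0.5) minus the mean of the 2 WT UD libraries of the series, with the colour scale ending at 4 in either direction, which the fall of Bnip3 exceeds. Most rows are below the WT UD level at 5 h, 24 h and 48 h in WT, and the UD columns of the Mtf2 null and labelled Jarid2 null cells are already lower for Slc2a1, Tpi1, Slc16a3, Bnip3 and Egln3.

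At the entry of the pathway, the glucose transporter Slc2a1 was at 522 and 435 CPM in the 2 WT UD libraries of the mesoderm series, at 93.5 and 99.8 CPM at 5 h and at 248 and 264 CPM at 48 h. The libraries of each time did not overlap with those of UD, and the level at 48 h lay between UD and 5 h. The log2 fold change was -2.31 ± 0.11 (SE, edgeR adjusted p = 9.7e-11) from UD to 5 h. From 24 h to 48 h it rose again by 1.60 ± 0.11 (SE, edgeR adjusted p = 1.9e-09). In the endoderm series Slc2a1 went from 493 and 429.6 CPM to 82.6 and 83.8 CPM at 5 h, a change of -2.47 ± 0.11 (SE, edgeR adjusted p = 2.2e-12), and was at 149 and 169.9 CPM at 48 h. Slc2a3, the second transporter of ESCs, was at 1048 and 829 CPM at UD and 811 and 757 CPM at 48 h in the mesoderm series, but at 1016 and 827 CPM and then 351 and 358 CPM in the endoderm series. Its net change was -0.26 ± 0.13 in the former and -1.38 ± 0.14 in the latter. In a fit over all 48 libraries, this was the only member whose net change from UD to 48 h differed between the 2 WT series, by 1.12 ± 0.19 (SE, edgeR adjusted p = 0.00019), where 1.35% of all genes were called. That count of 1 was 2 with the replicate number as a block, and it ranged from 0 to 3 when single libraries were left out. The fit enters the UD libraries of both series as separate libraries, so its SE and p rest on an independence that the comparison of those libraries puts in doubt.

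Further along, the hexokinases and the isomerase Gpi1 did not pass the call at 5 h in either series. Hk2, the inducible hexokinase, was at 437 and 302 CPM at UD and at 149 and 202 CPM at 48 h in the mesoderm series, a net change of -1.08 ± 0.15 (SE, edgeR adjusted p = 1.1e-05). Among the subunits of phosphofructokinase, which catalyses the committed step, the platelet form Pfkp fell at 5 h, with a log2 fold change of -1.24 ± 0.12 (SE, edgeR adjusted p = 9.4e-07) in the mesoderm series. The endoderm series gave -1.53 ± 0.13 (SE, edgeR adjusted p = 1.5e-07). The liver form Pfkl had a log2 fold change of -0.86 ± 0.14 at 5 h in the mesoderm series, short of the call, and fell, with a log2 fold change of -1.06 ± 0.13 (SE, edgeR adjusted p = 9.3e-06) in the endoderm series. The muscle form Pfkm went the other way. It stood at 22.2 and 17.7 CPM at UD and at 59.3 and 49.9 CPM at 48 h in the mesoderm series, and at 20.5 and 15.1 and then 82.6 and 58.8 CPM in the endoderm series. Its net rise was 1.46 ± 0.14 (SE, edgeR adjusted p = 1.6e-07) and 1.99 ± 0.17 (SE, edgeR adjusted p = 8.1e-09). Pfkfb3, whose product makes the sugar phosphate that activates phosphofructokinase, had not passed the call at 5 h but was lower at 48 h than at UD, with a log2 fold change of -1.96 ± 0.22 and -2.0 ± 0.20, both called.

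In the middle of the pathway, Tpi1, which encodes triose phosphate isomerase, was at 408 and 376 CPM at UD, 109.9 and 110.2 CPM at 5 h and 90.3 and 81.7 CPM at 48 h in the mesoderm series. Its log2 fold change at 5 h was -1.83 ± 0.13 (SE, edgeR adjusted p = 1.7e-08) there and -2.03 ± 0.11 (SE, edgeR adjusted p = 6.9e-11) in the endoderm series. The minor aldolase Aldoc fell, with a log2 fold change of -1.75 ± 0.27 (SE, edgeR adjusted p = 6.0e-05) and -1.98 ± 0.25 (SE, edgeR adjusted p = 1.1e-05), from 16.9 and 13.3 CPM at UD in the mesoderm series. The major aldolase Aldoa and Gapdh did not pass the call at 5 h. Gapdh was at 2539 and 1711 CPM at UD and at 2205 and 2353 CPM at 48 h in the mesoderm series, where the spread between the UD libraries was larger than the change. The Gapdh transcript has 71 near-identical gene copies in the annotation (at least 95% identity over at least 50% of the transcript), and 23.2% of the summed counts of gene and copies lay on the copies in the mesoderm table, so its level is uncertain.

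In lower glycolysis, Pgk1, which encodes phosphoglycerate kinase, was at 843 and 926 CPM at UD and 271 and 198 CPM at 5 h in the mesoderm series. It fell, with a log2 fold change of -1.91 ± 0.17 (SE, edgeR adjusted p = 2.1e-07) there, with a log2 fold change of -1.96 ± 0.12 (SE, edgeR adjusted p = 5.6e-10) in the endoderm series. Near-identical copies of Pgk1 held 13.4% of the summed counts of gene and copies in the mesoderm series and 6.46% in the endoderm series. Eno2, the neuronal enolase, was low at 7.29 and 8.35 CPM at UD and fell, with a log2 fold change of -1.68 ± 0.28 (SE, edgeR adjusted p = 0.00014) and -1.49 ± 0.25 (SE, edgeR adjusted p = 0.00018). Pkm was at 3026 and 2726 CPM at UD and 1098 and 972 CPM at 48 h in the mesoderm series, a net change of -1.47 ± 0.13 (SE, edgeR adjusted p = 3.8e-08). In the endoderm series it went from 2849 and 2664 to 1509 and 1391 CPM, a net change of -0.93 ± 0.11 that fell short of the fold limit. Eno3, the muscle enolase, did not change by the call at 5 h and then fell from 5 h to 24 h, with a log2 fold change of -1.64 ± 0.20 (SE, edgeR adjusted p = 5.2e-06) and -1.43 ± 0.16 (SE, edgeR adjusted p = 3.1e-06).

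For lactate, Ldha, whose subunit favours making lactate from pyruvate, was at 1128 and 1035 CPM at UD, 514 and 507 at 5 h, 217 and 206 at 24 h and 369 and 329.6 at 48 h in the mesoderm series. It fell in both of the first steps, with log2 fold changes of -1.08 ± 0.13 (SE, edgeR adjusted p = 4.2e-06) and then -1.27 ± 0.13 (SE, edgeR adjusted p = 6.3e-07). The endoderm series gave -1.42 ± 0.11 (SE, edgeR adjusted p = 1.4e-08) and -1.06 ± 0.11 (SE, edgeR adjusted p = 5.6e-07). The other subunit, Ldhb, was higher at 48 h than at UD, at 164 and 132 against 71.5 and 52.3 CPM in the mesoderm series. The net rise was 1.26 ± 0.15 (SE, edgeR adjusted p = 2.0e-06) in that series and 1.28 ± 0.18 (SE, edgeR adjusted p = 8.9e-06) in the endoderm series. Slc16a3, the lactate exporter typical of glycolytic cells, went from 115 and 93.4 CPM to 12.3 and 9.61 CPM at 5 h in the mesoderm series and from 104 and 91.4 to 10.3 and 9.88 CPM in the endoderm series. These changes of -3.24 ± 0.20 (SE, edgeR adjusted p = 1.6e-09) and -3.27 ± 0.15 (SE, edgeR adjusted p = 6.5e-12) were followed by a partial return. From 24 h to 48 h Slc16a3 rose by 1.72 ± 0.20 (SE, edgeR adjusted p = 2.6e-06) and 2.64 ± 0.15 (SE, edgeR adjusted p = 1.2e-10). Pdk1, a kinase that keeps pyruvate out of the mitochondrion by inhibiting pyruvate dehydrogenase, and Slc16a1, the other monocarboxylate transporter, passed the call at no step in WT.

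Of the hypoxia-response genes, Bnip3, which encodes a mitochondrial receptor for autophagy, had the largest fall of all members at 5 h in both series. It went from 111 and 143 CPM to 3.70 and 4.70 CPM in the mesoderm series and from 122 and 137 to 4.71 and 4.77 CPM in the endoderm series, with no overlap. The log2 fold changes were -4.92 ± 0.25 (SE, edgeR adjusted p = 1.1e-10) and -4.77 ± 0.18 (SE, edgeR adjusted p = 3.9e-13). Bnip3 then rose from 24 h to 48 h by 1.69 ± 0.25 (SE, edgeR adjusted p = 6.0e-05) and 2.06 ± 0.18 (SE, edgeR adjusted p = 3.1e-08). Egln3, a prolyl hydroxylase that marks the factor's alpha subunit, went from 32.6 and 25.2 to 3.34 and 3.87 CPM in the mesoderm series. Its log2 fold change was -3.0 ± 0.21 (SE, edgeR adjusted p = 1.7e-08) there and -2.98 ± 0.18 (SE, edgeR adjusted p = 6.5e-10) in the endoderm series. P4ha1, the catalytic subunit of the collagen prolyl hydroxylase, fell, with a log2 fold change of -1.59 ± 0.14 (SE, edgeR adjusted p = 2.7e-07) and -1.65 ± 0.12 (SE, edgeR adjusted p = 1.7e-08). Vegfa, the angiogenic growth factor, fell at 5 h in the endoderm series, with a log2 fold change of -1.22 ± 0.16 (SE, edgeR adjusted p = 1.7e-05) and rose again from 24 h to 48 h by 1.63 ± 0.15 (SE, edgeR adjusted p = 1.2e-07). At 48 h in the mesoderm series the WT libraries of Vegfa stood apart, at 32.9 and 80.4 CPM. Hif1a itself was at 101 and 87.2 CPM at UD and 132 and 113 CPM at 5 h in the mesoderm series and passed the call at no step, but the factor is controlled mainly at the protein level, which was not measured.

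**Figure D2:**
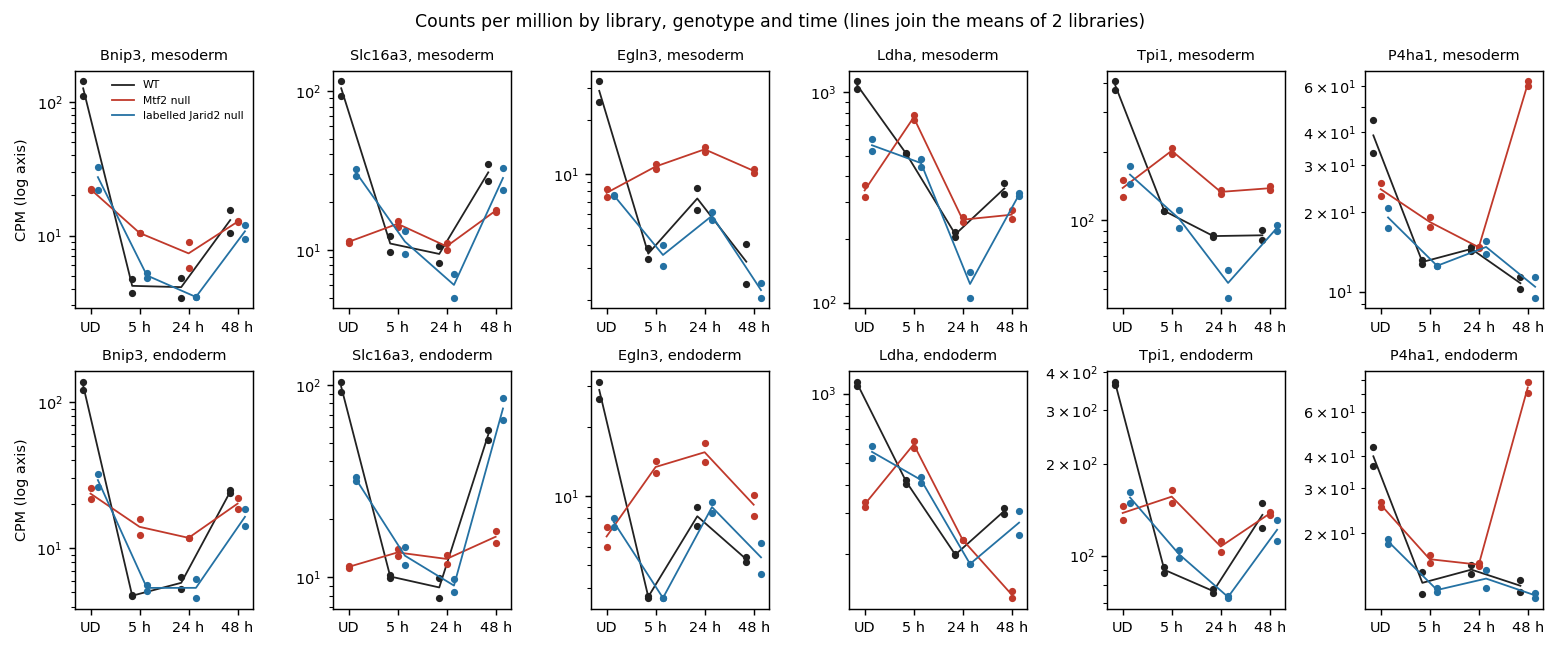
CPM (log axis) of Bnip3, Slc16a3, Egln3, Ldha, Tpi1 and P4ha1 at UD, 5 h, 24 h and 48 h in both directed series, with 1 point per library and lines joining the means of the 2 libraries of each genotype. The WT line starts highest at UD in all 6 genes, the lines lie closer together at 5 h, and at 48 h P4ha1 of Mtf2 null cells is highest at 59.8 and 62.3 CPM (mesoderm) and 78.6 and 70.7 CPM (endoderm).

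After 5 h the WT changes were smaller in number. From 5 h to 24 h, 2 members were called in the mesoderm series and 4 in the endoderm series, where 4.41% and 2.5% of all genes were called. From 24 h to 48 h, 6 members were called in the mesoderm series, of which 5 rose, and 4 in the endoderm series, all of which rose, with 4.16% and 3.88% of all genes called. Ndrg1, a stress-response gene, was at 2.17 and 2.04 CPM at 24 h and 13.1 and 11.2 CPM at 48 h in the mesoderm series, a rise of 2.53 ± 0.38 (SE, edgeR adjusted p = 6.9e-05). In the endoderm series it stood at 3.64 and 3.67 CPM at 48 h. The count of 6 in the mesoderm series was 3 without the first WT 24 h library and 2 without the second. The count of 4 from 5 h to 24 h in the endoderm series was 2 without the first WT 5 h library. Over the whole interval from UD to 48 h, 15 members were called in the mesoderm series (13 lower) and 14 in the endoderm series (12 lower), against 8.64% and 8.15% of all genes. Ldhb and Pfkm were the 2 members that rose over the interval in each series.

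Other genes of the 2 pathways came from lists of the remaining enzymes and of further hypoxia-response genes. At 5 h, 10 of the 37 further hypoxia-response genes that passed the filter were called in the mesoderm series (9 lower) and 11 of 37 in the endoderm series (10 lower), with medians of -0.44 and -0.36. The 3 largest changes were those of Ccng2 (-2.98), Hmox1 (2.19) and Loxl2 (-1.99) in the mesoderm series and of Ccng2 (-2.57), Fam162a (-1.99) and Bhlhe40 (-1.93) in the endoderm series, all log2 fold changes. Hmox1, which encodes the inducible heme oxygenase, was the one that rose. Of the 37 further glycolytic genes tested, Pgm1, a phosphoglucomutase, fell in both series, with a log2 fold change of -2.31 ± 0.17 and -2.09 ± 0.13, and in the endoderm series Pdp1, a phosphatase that activates pyruvate dehydrogenase, fell, with a log2 fold change of -1.08 ± 0.16. These were 1 and 2 called genes, with list medians of -0.07 and -0.22. Beside the counts of both lists, 4.13% of all genes were called in the mesoderm series and 2.1% in the endoderm series.

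The comparison of Mtf2 null with WT cells asked how loss of this subunit changes the same genes at each time. In UD cells, 9 members were lower in Mtf2 null cells of the mesoderm series, where 11.1% of all genes were called, and 8 were lower and 1 higher in the endoderm series (11.0%). The higher one was Eno1, whose log2 difference was -0.57 with the counts of its copy Eno1b added before the fit. The members' median log2 fold change was -0.54 against -0.021 for all genes in the mesoderm series, and -0.53 against -0.048 in the endoderm series. Since the same WT UD libraries enter the change from UD to 5 h and both genotype comparisons at UD, these sets of values are not independent and are given side by side only.

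Slc16a3 had the largest difference at UD, at 11.0 and 11.4 CPM in the Mtf2 null libraries of the mesoderm series and 11.5 and 11.1 CPM in those of the endoderm series, below every WT UD library. The log2 fold changes were -3.22 ± 0.20 (SE, edgeR adjusted p = 1.1e-10) and -3.11 ± 0.15 (SE, edgeR adjusted p = 7.4e-13). Bnip3 was at 22.1 and 22.4 and 25.7 and 21.6 CPM, with log2 fold changes of -2.51 ± 0.20 (SE, edgeR adjusted p = 8.3e-09) and -2.45 ± 0.15 (SE, edgeR adjusted p = 4.2e-11). Egln3 was lower, with a log2 fold change of -1.88 ± 0.19 and -2.11 ± 0.17. Among the enzymes, Ldha was at 319 and 364 CPM in the mesoderm series, lower than WT, with a log2 fold change of -1.66 ± 0.13 (SE, edgeR adjusted p = 3.7e-09). Tpi1 was at 127 and 151 CPM, lower, with a log2 fold change of -1.5 ± 0.13 (SE, edgeR adjusted p = 2.1e-08). Slc2a1, Pfkp and Aldoc were also lower in both series, at -1.53, -1.48 and -1.89 on the log2 scale in the mesoderm series. Ldhb was lower, with a log2 fold change of -1.06 ± 0.16 in the mesoderm series and, short of the call, with a log2 fold change of -0.96 ± 0.19 in the endoderm series. Slc2a3 was not among the called genes, at 1392 and 1384 CPM against 1048 and 829 in WT. The 6 pluripotency markers summed to 2635 to 2804 CPM in the Mtf2 null UD libraries of the mesoderm series and to 2126 to 2590.2 in WT, and their part in these differences was not tested.

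Of the members that were lower in Mtf2 null cells at UD, Ldhb was the one also called lower at 5 h in the mesoderm series, and none of the 8 of the endoderm series was. In the mesoderm series 5 members were called at 5 h, 4 of them higher in Mtf2 null cells (7.56% of all genes called), and in the endoderm series 4, of which 3 were higher (7.61%). Eno1, treated further below, was among the higher ones in both series. Bnip3 was at 10.4 and 10.5 CPM against 3.70 and 4.70 in WT in the mesoderm series, higher by 1.32 ± 0.27 (SE, edgeR adjusted p = 0.00076), and by 1.56 ± 0.20 (SE, edgeR adjusted p = 2.8e-06) in the endoderm series. Egln3 was at 10.6 and 11.4 CPM against 3.34 and 3.87, higher by 1.61 ± 0.22 (SE, edgeR adjusted p = 1.2e-05) and, in the endoderm series, 1.87 ± 0.19 (SE, edgeR adjusted p = 1.7e-07). In Mtf2 null cells Egln3 had been at 8.22 and 7.46 CPM at UD, below both 5 h libraries. Ldhb was lower in both series at 5 h, with log2 fold changes of -1.37 ± 0.16 (SE, edgeR adjusted p = 1.5e-06) and -1.16 ± 0.19 (SE, edgeR adjusted p = 7.7e-05). Without the first Mtf2 null 5 h library, 3 of the 5 calls were left in the mesoderm series. At 24 h, 1 member was called in the mesoderm series and 3 in the endoderm series (5.72% and 6.58% of all genes). The 1 of the mesoderm series was Eno1, whose log2 difference was -0.0059 with the counts of Eno1b added. Eno1 was also among the 3 of the endoderm series, where that sum gave 0.0028. Ndrg1 was another of these 3, at 8.31 and 6.41 CPM against 2.40 and 1.85, higher by 1.79 ± 0.28 (SE, edgeR adjusted p = 6.0e-05). That count of 3 was 1 without the first Mtf2 null 24 h library or the second WT 24 h library.

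At 48 h other members differed. In the mesoderm series 4 members were higher in Mtf2 null cells and none was lower (6.82% of all genes called), and in the endoderm series 5 were higher and 4 lower (10.5%). Eno1, treated further below, was among the higher members in both series. P4ha1 had the largest difference in both, at 59.8 and 62.3 CPM against 10.2 and 11.3 in WT in the mesoderm series and at 78.6 and 70.7 against 11.7 and 13.1 in the endoderm series. The log2 fold changes were 2.51 ± 0.14 (SE, edgeR adjusted p = 2.5e-11) and 2.59 ± 0.12 (SE, edgeR adjusted p = 4.5e-13). Pfkfb3 was at 10.4 and 12.4 CPM against 3.33 and 4.65 in the mesoderm series, higher by 1.52 ± 0.22 (SE, edgeR adjusted p = 2.9e-05), and by 1.78 ± 0.20 (SE, edgeR adjusted p = 4.6e-07) in the endoderm series. Egln3 was higher in the mesoderm series by 1.65 ± 0.21 (SE, edgeR adjusted p = 6.3e-06). In the endoderm series Slc2a3 was at 1167 and 918 CPM against 351 and 358, higher by 1.56 ± 0.15 (SE, edgeR adjusted p = 2.5e-08). Ndrg1 was at 20.9 and 20.9 CPM against 3.64 and 3.67, higher by 2.51 ± 0.25 (SE, edgeR adjusted p = 7.2e-08). Whether these Mtf2 null differences at 48 h themselves differ between the series was not tested.

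The members that were lower in Mtf2 null cells at 48 h were genes of lactate and pyruvate and 1 phosphofructokinase subunit, all in the endoderm series. Slc16a3 was at 15.1 and 17.3 CPM against 58.4 and 51.8 in WT, lower, with a log2 fold change of -1.76 ± 0.14 (SE, edgeR adjusted p = 2.4e-09). Pdk1 was at 81.3 and 83.8 CPM against 234 and 212, lower, with a log2 fold change of -1.43 ± 0.09 (SE, edgeR adjusted p = 3.7e-11). Ldha was at 128 and 137 CPM against 317 and 298, lower, with a log2 fold change of -1.21 ± 0.11 (SE, edgeR adjusted p = 9.9e-09). Pfkp was lower, with a log2 fold change of -1.17 ± 0.14 (SE, edgeR adjusted p = 6.9e-07). All 4 had no overlap between the groups, which the call itself selects for, so it is not read as further support. At 48 h the 4 definitive endoderm markers summed to 48.8 to 57.1 CPM in the Mtf2 null libraries of the endoderm series against 0.866 to 0.942 in WT, and to 26.2 to 34.3 against 1.18 to 2.36 in the mesoderm series. The 7 primitive streak and mesoderm markers summed to 59.97 to 61.4 against 12.7 to 13.2 CPM in the endoderm series. The part of these marker-bearing cells in the differences was not tested, and in bulk RNA more cells of a type and more RNA per cell cannot be told apart.

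Tested as an interaction, the log2 change from UD to 48 h of Mtf2 null minus that of WT cells was positive for 8 members in the mesoderm series, where 2.71% of all genes were called. It was positive for 9 in the endoderm series (5.24%) and negative for Pdk1 and Pfkm. A positive value can stand for a smaller fall, as for Tpi1, which was at 127 and 151 CPM at UD and 136 and 141 CPM at 48 h in Mtf2 null cells of the mesoderm series. WT cells went from 408 and 376 to 90.3 and 81.7 CPM. P4ha1 and Egln3 had the largest interactions, of 3.18 ± 0.19 (SE, edgeR adjusted p = 4.9e-09) and 3.53 ± 0.29 (SE, edgeR adjusted p = 2.5e-07) in the mesoderm series. They were 3.22 ± 0.17 (SE, edgeR adjusted p = 1.6e-10) and 2.90 ± 0.25 (SE, edgeR adjusted p = 8.9e-08) in the endoderm series. Slc2a1, Tpi1, Slc16a3 and Bnip3 were called in both. All 4 were lower in Mtf2 null cells at UD, and at 48 h none of the 4 was higher than WT by the call. Pfkm rose over time in WT cells of the endoderm series but was at 30.5 and 34.4 CPM at UD and 44.6 and 36.9 CPM at 48 h in Mtf2 null cells, an interaction of -1.67 ± 0.23 (SE, edgeR adjusted p = 2.1e-05).

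**Figure D3:**
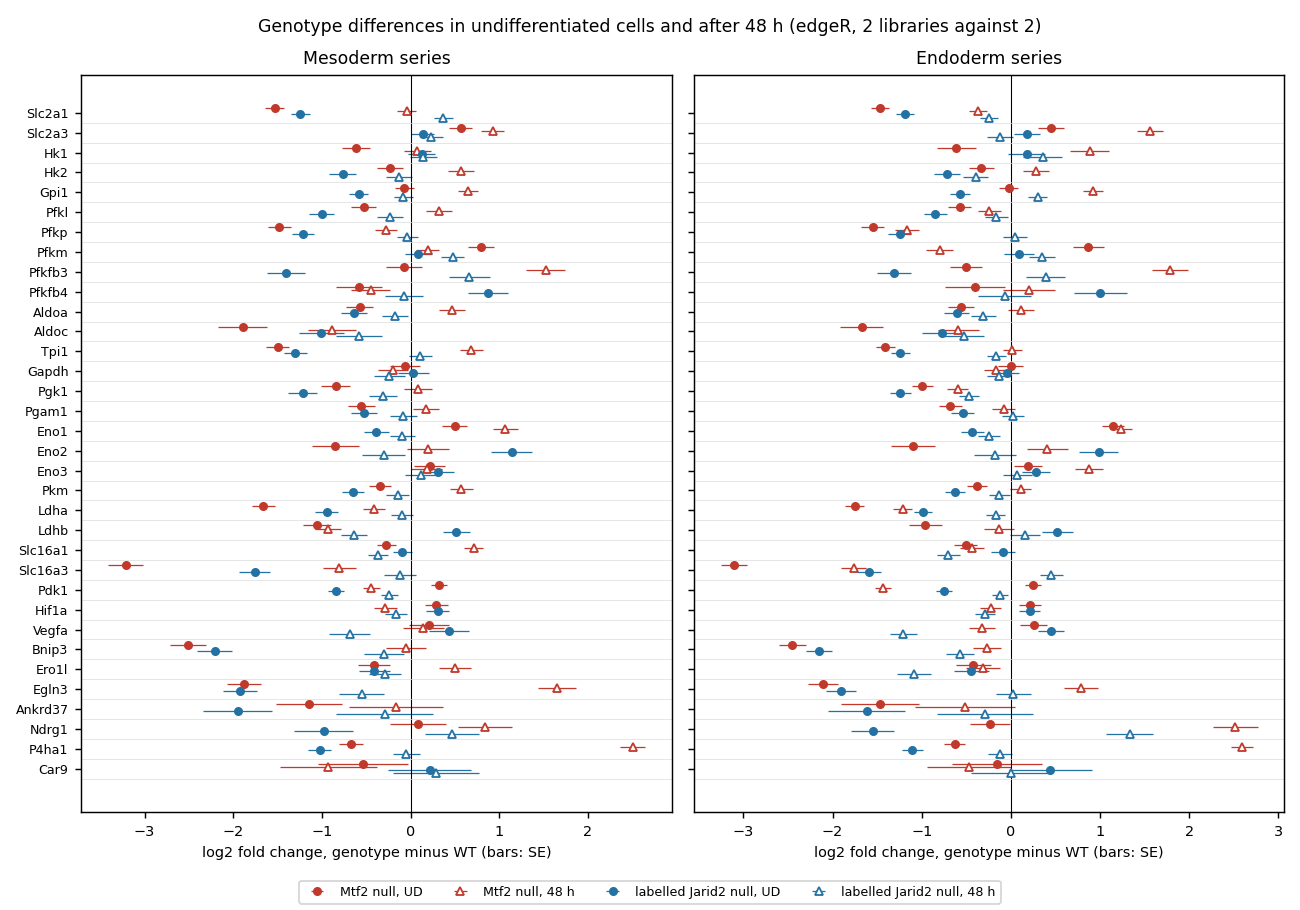
Log2 fold changes (± SE from edgeR) of the 34 members in Mtf2 null minus WT and labelled Jarid2 null minus WT cells, for UD (filled) and 48 h (open) in both directed series. At UD most points lie below 0 in both genotypes, with Slc16a3 and Bnip3 lowest for Mtf2 null cells, and at 48 h P4ha1 of Mtf2 null cells lies highest.

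Beyond the 34 members, the further hypoxia-response genes with the largest Mtf2 null differences at 48 h were Loxl2 (3.32 and 3.33 on the log2 scale in the mesoderm and endoderm series), P4ha2 (1.61 and 3.0) and Epas1 (2.23 and 2.01). Loxl2 crosslinks collagen, P4ha2 is the paralog of P4ha1, and Epas1 encodes another hypoxia-inducible alpha subunit. Of the 37 tested, 4 were higher and 1 lower in the mesoderm series and 6 and 2 in the endoderm series, where 6.82% and 10.5% of all genes were called. Hkdc1, which encodes a further hexokinase, was at 25.3 and 24.4 CPM against 1.05 and 0.408 in WT at 48 h in the mesoderm series and at 42.4 and 31.1 against 0.260 and 0.283 in the endoderm series, called higher in both. It was also called higher at UD, at 7.10 and 7.05 CPM against 0.493 and 0.852 in the mesoderm series. Epas1 was likewise higher at UD, by 1.76 and 1.82, while Fam162a (-1.93 and -1.89) and Bnip3l (-1.70 and -1.68) were lower.

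By the call, most differences of the labelled Jarid2 null libraries from WT in these genes were at UD. There 10 members were lower in each series and none was higher, while 0.37% of all genes were called in the mesoderm series and 0.742% in the endoderm series. Members thus made up 10 of the 68 genes called in the mesoderm series and 10 of the 143 in the endoderm series. Their median log2 fold change was -0.64 against 0.018 for all genes, and -0.62 against 0.0096. Bnip3 was at 22.1 and 32.8 CPM in the mesoderm series and 26.2 and 32.4 CPM in the endoderm series, below the WT libraries of both series, with log2 fold changes of -2.21 ± 0.20 (SE, edgeR adjusted p = 4.3e-06) and -2.15 ± 0.15 (SE, edgeR adjusted p = 2.0e-08). Slc16a3 was at 29.3 and 32.2 CPM in the mesoderm series, lower, with a log2 fold change of -1.76 ± 0.18 (SE, edgeR adjusted p = 1.1e-05). Egln3 was at 7.63 and 7.54 CPM, lower, with a log2 fold change of -1.93 ± 0.19 (SE, edgeR adjusted p = 1.1e-05). Pgk1, at 382 and 378 CPM, was lower, with a log2 fold change of -1.22 ± 0.16 (SE, edgeR adjusted p = 0.00017), and Pfkfb3, at 5.80 and 5.90 CPM, gave -1.40 ± 0.21 (SE, edgeR adjusted p = 0.00063). Slc2a1, Pfkp, Tpi1 and P4ha1 were called lower in both series as well. The count in the mesoderm series was 3 without the first labelled Jarid2 null UD library, 6 without the second or without the first WT UD library, and as high as 11 otherwise.

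At 5 h no member was called in the labelled Jarid2 null libraries of either series, where 0.0% and 0.0363% of all genes were called. By edgeR at an unadjusted p under 0.05 there were 7 members in the mesoderm series and 2 in the endoderm series, and DESeq2 also called 0 in each. At 24 h, 2 members were called in the mesoderm series (1.97% of all genes). Without the fold limit and at an adjusted p under 0.05, it was 21 members (16 lower) against 23.2% of all genes, with a member median of -0.35 against -0.039. The labelled Jarid2 null 24 h libraries of that series also stood apart in markers, whose part was not tested. The 6 pluripotency markers summed to 1349 to 1509.9 CPM against 2027 to 2131 in WT, and the 7 primitive streak and mesoderm markers to 31.6 to 48.5 against 71.3 to 74.6. Hk1, the constitutive hexokinase, was at 18.1 and 19.5 CPM against 41.6 and 36.5 in WT, lower, with a log2 fold change of -1.05 ± 0.16 (SE, edgeR adjusted p = 0.00019). Ero1l, an oxidase of the endoplasmic reticulum, was at 105 and 79.7 CPM against 48.0 and 42.96, higher by 1.03 ± 0.17 (SE, edgeR adjusted p = 0.00041). Those 2 calls became 0 or 1 when single libraries of these groups were left out. In the endoderm series at 24 h none was called (0.0312% of all genes), with 2 at an unadjusted p under 0.05 in edgeR and 0 called by DESeq2. At 48 h none was called in the mesoderm series (0.169%), with 9 at an unadjusted p under 0.05 in edgeR and 0 called by DESeq2, and 1 in the endoderm series (0.125%). That gene was Vegfa, at 39.7 and 34.2 CPM against 69.6 and 101 in WT, lower, with a log2 fold change of -1.21 ± 0.15 (SE, edgeR adjusted p = 0.00012). That count of 1 ranged from 0 to 2 when libraries were left out.

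The interaction of the labelled Jarid2 null with the change from UD to 48 h was called for 2 members in the mesoderm series, Slc2a1 and Tpi1, of 0.0545% among all genes, and for 7 in the endoderm series (0.514%). Slc2a1 had an interaction of 1.61 ± 0.15 (SE, edgeR adjusted p = 1.3e-05) and Tpi1 of 1.41 ± 0.18 (SE, edgeR adjusted p = 0.00048) in the mesoderm series. Slc16a3, Bnip3, Egln3, Pfkp, Tpi1 and Ndrg1 had positive interactions in the endoderm series, with Slc16a3 at 2.04 ± 0.18 (SE, edgeR adjusted p = 2.6e-06), and Vegfa had a negative one, at -1.65 ± 0.21 (SE, edgeR adjusted p = 0.00010). Without the first labelled Jarid2 null UD library, 1 of the 7 was called. It was 4 without the second labelled Jarid2 null 48 h library, the second WT 48 h library or the first WT UD library, while the 2 in the mesoderm series ranged from 1 to 5. For the mesoderm series DESeq2 called 7 and the fit without a filter on low counts called 9. Of the further hypoxia-response genes, 5 of 37 were lower at UD in the mesoderm series and 7 of 37 in the endoderm series, led by Tfrc (-1.28), Loxl2 (-1.22) and Ccng2 (-1.17) in the former and Ccng2 (-1.39), Tfrc (-1.27) and Bnip3l (-1.18) in the latter. Pgm1 was lower, with a log2 fold change of -1.18 and -1.07, the one further glycolytic gene called at UD in either series. Of all genes, 0.37% and 0.742% were called at UD.

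Eno1, which encodes the main enolase, needs a separate account because its transcript is 99.5% identical over 1736 bases to that of Eno1b. In the Mtf2 null libraries Eno1 was called higher than WT at 7 of the 8 times and series. At 48 h in the mesoderm series Eno1 was at 1207 and 1187 CPM against 562 and 578 in WT, a difference of 1.07 ± 0.14 (SE, edgeR adjusted p = 7.8e-06). Over the same libraries Eno1b was at 0.909 and 2.14 CPM in Mtf2 null and 656 and 628 CPM in WT. The sum of the pair was 1208 and 1189 CPM in Mtf2 null and 1218 and 1206 CPM in WT. With the counts of the pair added before the fit, the log2 fold change at 48 h was -0.02, and no difference of Eno1 between Mtf2 null and WT cells was higher by the call at any time. Across the directed libraries Eno1b lay at 0 to 11.1 CPM in Mtf2 null cells and at 472 to 1580 CPM in all others. Eno1 is 1 of the members counted above for Mtf2 null cells, and its own count alone is not read as a difference in enolase.

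In bulk EBs the level of the targeted gene overlapped between each labelled null line and its WT line. Mtf2 was at 166 to 324 CPM in the labelled Mtf2 null samples and 316 to 433 in Pcl1-3 WT, Jarid2 at 223 to 676 against 272 to 636 in JM8, and Eed at 58.8 to 205 against 52.9 to 246 in J1. Eno1b was at 0 to 3.88 CPM in every Pcl1-3 WT and JM8 sample. It was at 567 CPM in the labelled Jarid2 null sample of day 0 and 403 CPM in the labelled Mtf2 null sample of day 2, and at 1054 to 1909 CPM in all other samples. In the directed series, in contrast, Eno1b was near 0 in the Mtf2 null cells, so the label Mtf2 null goes with opposite Eno1b levels in the 2 experiments, and the EB groups are called by their labels. The 2 samples with intermediate Eno1b stand apart from their groups, and counts without their days are given below. Since Eno1b also separates Pcl1-3 WT and JM8 from the lines labelled as their nulls, genotype and line cannot be told apart in those comparisons.

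In the 3 WT lines, the called members were mostly lower at day 2 than at day 0 and mostly higher at day 4 than at day 2. From day 0 to day 2, 8 members were called, 7 of them lower, and from day 2 to day 4, 15 members were called, 14 of them higher. Of all genes, 12.3% and 27.5% were called at an adjusted p under 0.05 in limma with the line as a block. Between day 0 and day 2, time and the step from monolayer to aggregate cannot be told apart. The members' median log2 fold change was -0.39 and then 0.54, against -0.022 and -0.039 for all genes. From day 4 to day 7 none was called, where 0.137% of all genes were, with 3 members at an unadjusted p under 0.05 in limma and 0 called by edgeR on the recovered reads.

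Over days 0, 2, 4 and 7, Slc2a1 was at 402, 440.3, 1196 and 1142 CPM in Pcl1-3 WT, 509.8, 465, 1335 and 1081 in JM8 and 656, 516, 906 and 1138 in J1. All 3 lines were higher at day 4 than at day 2, by 1.27 ± 0.20 (SE, limma adjusted p = 0.0034) on the log2 scale. P4ha1 fell from day 0 to day 2, with a log2 fold change of -0.99 ± 0.20 (SE, limma adjusted p = 0.020) and rose from day 2 to day 4 by 1.36 ± 0.20 (SE, limma adjusted p = 0.0025). It was at 71.2, 32.7, 94.3 and 141 CPM in JM8 and 116, 59.9, 149 and 202 in J1. The other members that rose to day 4 included Slc16a3 (1.15 ± 0.14), Pfkfb3 (1.20 ± 0.29), Slc2a3 (1.14 ± 0.24) and Aldoa (1.08 ± 0.23), and Hk2 was the one that fell (-0.78 ± 0.14). Hif1a rose from day 0 to day 2 in all 3 lines, by 0.71 ± 0.15 (SE, limma adjusted p = 0.021), over the interval in which the hypoxia-response genes Vegfa and P4ha1 fell. The count of 8 from day 0 to day 2 was 0 without JM8, 2 without Pcl1-3 WT and 4 without J1, and the count of 15 from day 2 to day 4 was 0 without JM8. Col1a1, Col1a2, Col3a1 and Thy1, listed beforehand as markers of fibroblast feeder cells, summed to 20.8, 18.1, 136 and 4485 CPM over days 0, 2, 4 and 7 in J1. The day 7 value was the highest of all EB samples. Which cells carried these transcripts, and their part in the changes, was not tested.

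**Figure D4:**
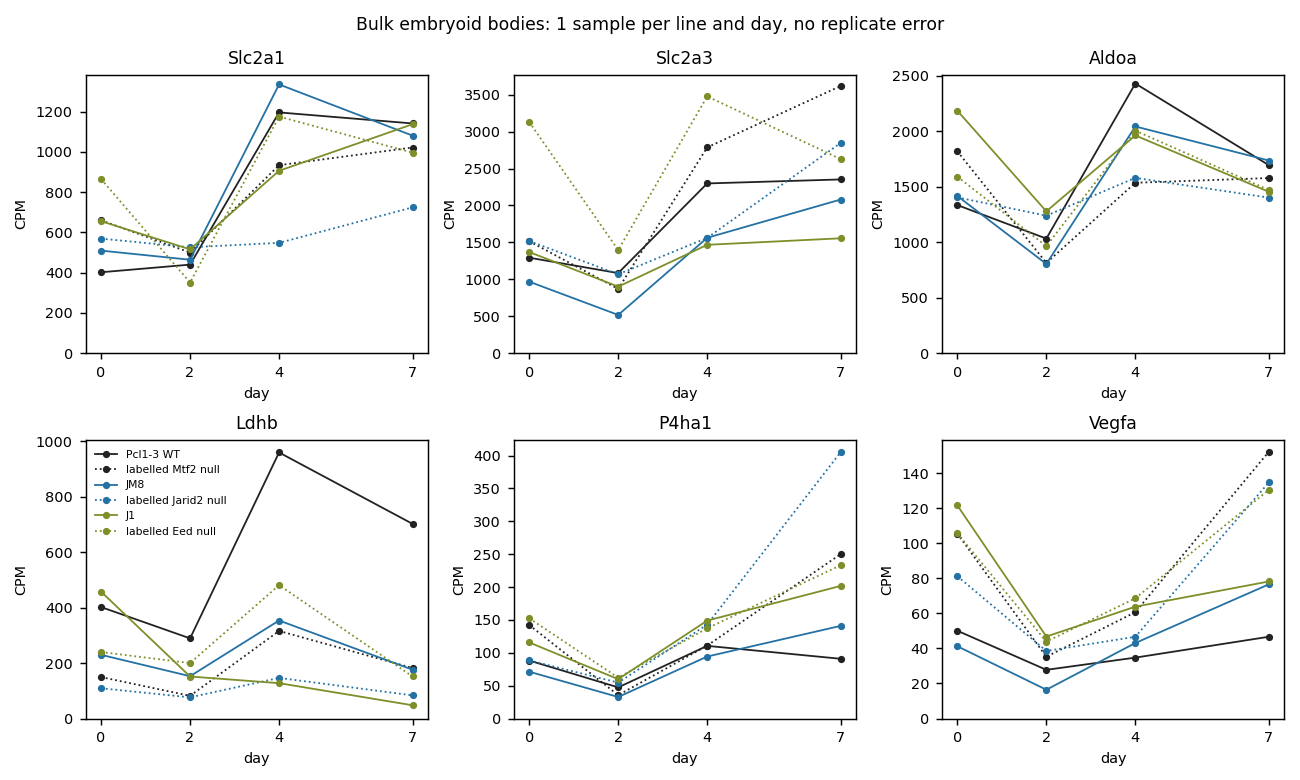
CPM of Slc2a1, Slc2a3, Aldoa, Ldhb, P4ha1 and Vegfa by day in the 3 WT lines and the 3 labelled null lines of the bulk EBs, 1 sample per line and day. Slc2a1 of the 3 WT lines rises between days 2 and 4, and Ldhb of Pcl1-3 WT lies above every other line from day 2 on, at up to 960.1 CPM.

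Against the matched WT line, with the day as a block, 3 members were called in the labelled Mtf2 null, 8 in the labelled Jarid2 null and 5 in the labelled Eed null samples. Of all genes, 8.44%, 15.9% and 10.2% were called, and all 34 members were tested. In this fit the days of a line stand in for replicates. Its SE and p measure how steady the gap between 1 null and 1 WT line was over days, not spread between cultures or lines. Eno1 was 1 of the called members in the labelled Mtf2 and Jarid2 nulls, with log2 fold changes of -1.31 and -1.42. With the counts of Eno1b added they were 0.013 and 0.063, so neither call of Eno1 is read as a difference in enolase. Ldhb was at 149.7, 81.9, 316 and 182 CPM over days 0, 2, 4 and 7 in the labelled Mtf2 null and 402, 289, 960.1 and 702 in Pcl1-3 WT, lower on each day, with a log2 fold change of -1.73 ± 0.17 (SE, limma adjusted p = 0.0022). It was at 109, 76.4, 147 and 83.6 CPM in the labelled Jarid2 null and 229.9, 153, 354 and 176 in JM8, lower, with a log2 fold change of -1.09 ± 0.11 (SE, limma adjusted p = 0.0035). Vegfa was higher on each day in both, at 105, 35.2, 60.6 and 152 CPM against 50.1, 27.8, 34.7 and 46.6 (log2 fold change 0.94 ± 0.22, SE, limma adjusted p = 0.042) and 81.2, 38.5, 46.6 and 135 against 41.2, 16.4, 43.1 and 76.5 (log2 fold change 0.78 ± 0.19, SE, limma adjusted p = 0.035). P4ha1 was also higher in the labelled Jarid2 null, at 88.4, 54.6, 143 and 405 CPM, by 0.80 ± 0.19 (SE, limma adjusted p = 0.031), with its largest gap at day 7.

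In the labelled Eed null samples 4 of the 5 called members were higher than in J1. Slc2a3 was at 3129.8, 1397, 3476 and 2628 CPM against 1370.0, 901, 1468 and 1556 in J1, higher on each day and by 0.97 ± 0.15 (SE, limma adjusted p = 0.019). Hk2 was at 761, 705, 562 and 498 CPM against 398, 447, 229.5 and 189, higher by 1.08 ± 0.14 (SE, limma adjusted p = 0.015). Gapdh and Tpi1 were higher by 0.53 ± 0.11 and 0.45 ± 0.10, and Slc16a3 was lower, with a log2 fold change of -0.59 ± 0.11. Leaving out any 1 day left none of the 5 calls. The count of 3 for the labelled Mtf2 null was also 3 without day 2, whose sample had intermediate Eno1b, and 1 without day 0, day 4 or day 7. The count of 8 for the labelled Jarid2 null was 7 without day 0, whose sample had intermediate Eno1b, 2 without day 2 or day 4 and 1 without day 7.

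In single cells there was 1 library per genotype and day, so no difference at a given day could be tested, and no fit pooling the days was made. Values are unique molecular identifier (UMI) counts scaled to a common library total (UMI CPM), with exact Poisson 95% intervals that cover counting error only. The 16 libraries held 202 to 347 cells each, 4949 in all, and median UMIs per cell ranged from 4997 to 10603. The libraries share 1 set of 384 cell barcodes. A gene was counted as past 2-fold in a pair of libraries with at least 30 UMIs between them. Here the targeted genes followed the labels.

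In WT, the 25 glycolytic and lactate members together were at 9693 (95% interval 9582 to 9805) UMI CPM at day 0 and 16300.5 (95% interval 16129.9 to 16472) at day 4. They stood at 12879 (95% interval 12727 to 13032) at day 7 and 12794 (95% interval 12608 to 12983) at day 10. The 9 hypoxia members went from 779 (95% interval 748 to 812) at day 0 to 1857 (95% interval 1800.0 to 1916) at day 4. From day 0 to day 4, 15 of 32 members were past 2-fold, all higher, against 23.9% of all genes in either direction. From day 4 to day 7 and from day 7 to day 10 it was 5 of 31 and 5 of 32, against 20.3% and 12.3%. Day 0 cells were undifferentiated by the study's account, and EBs differentiated without LIF. Between days 0 and 4, time and medium cannot be told apart. Median UMIs per cell in WT were 8447 at day 0 and 5233 at day 4. Bnip3 in WT was at 348, 970.2, 559.8 and 742 UMI CPM over days 0, 4, 7 and 10, P4ha1 at 45.2, 164, 169.5 and 251 and Aldoa at 1319, 3335, 1542 and 1933. Bnip3 and Aldoa thus peaked at day 4 whereas P4ha1 was highest at day 10. Ldhb was at 154, 730.2, 189 and 195, highest at day 4, with a ratio of day 7 to day 4 of 0.259.

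**Figure D5:**
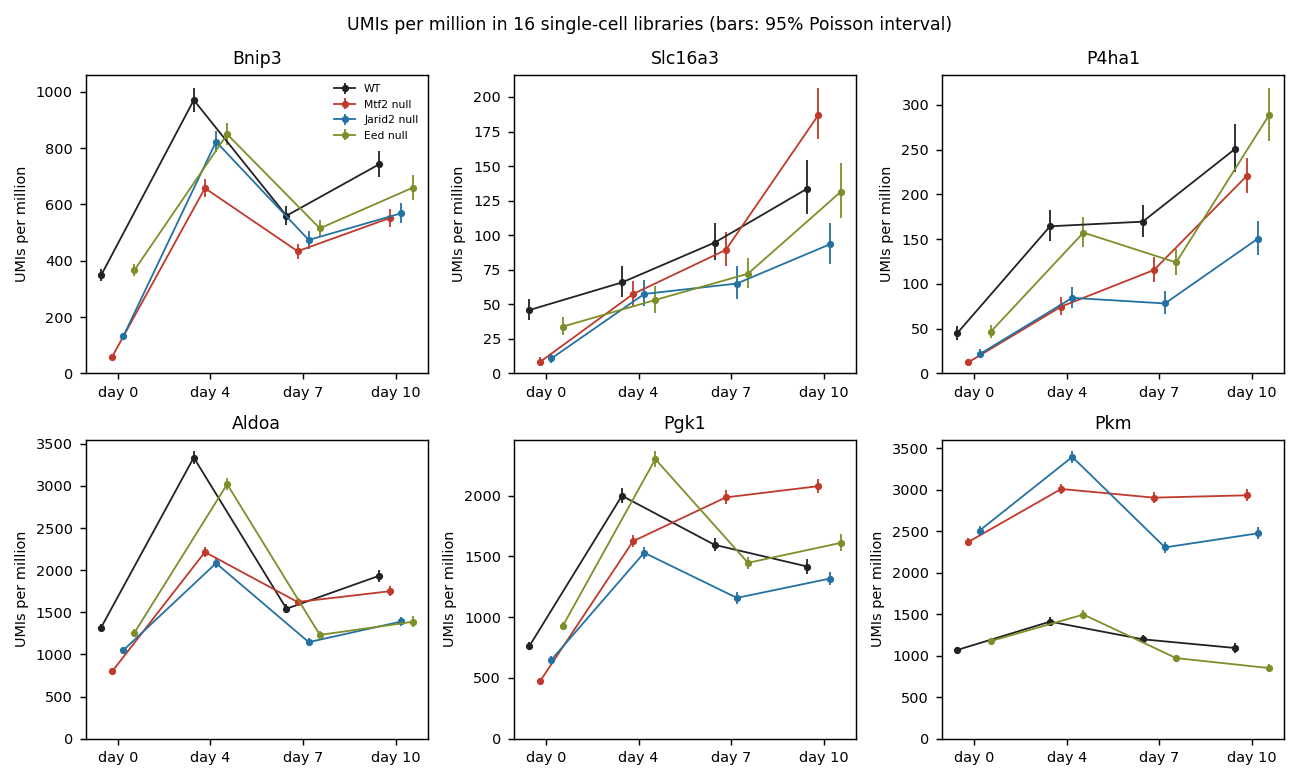
UMI CPM by day (0, 4, 7 and 10) for Bnip3, Slc16a3, P4ha1, Aldoa, Pgk1 and Pkm in the single-cell libraries of the 4 genotypes, with 95% Poisson intervals as bars. At day 0 the Mtf2 null and Jarid2 null libraries lie below WT for the first 3 genes, and Pkm of both lies above every WT and Eed null library on every day.

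At day 0 the single-cell libraries of Mtf2 null and Jarid2 null cells were lower than WT for many members. In Mtf2 null cells 14 of 30 members were past 2-fold, 13 of them lower (12.2% of all genes), and in Jarid2 null cells 10 of 30, 9 of them lower (12.1%). Eed null cells had 2 of 32, both higher (14.0%). Bnip3 was at 348 (95% interval 327 to 370.1) UMI CPM in WT, 59.6 (95% interval 52.2 to 67.8) in Mtf2 null, 132 (95% interval 119.8 to 145) in Jarid2 null and 367 (95% interval 347 to 388) in Eed null cells. The Mtf2 null and Jarid2 null intervals lay apart from WT and from each other, while those of Eed null and WT overlapped. Slc16a3 was at 45.8 (95% interval 38.5 to 54.2) in WT, 8.48 (95% interval 5.84 to 11.9) in Mtf2 null and 10.9 (95% interval 7.59 to 15.2) in Jarid2 null cells. Pfkp, P4ha1, Ndrg1, Pfkfb3, Pfkl and Ero1l were past 2-fold lower in both genotypes as well, as were Slc2a1, Aldoc, Egln3, Ldhb and Vegfa in Mtf2 null cells and Hk1 in Jarid2 null cells. The 9 hypoxia members summed to 326 (95% interval 309 to 345) in Mtf2 null, 417 (95% interval 395 to 440.0) in Jarid2 null and 833 (95% interval 802 to 864) in Eed null cells.

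From day 4 fewer members of Mtf2 null and Jarid2 null cells were past 2-fold than at day 0. The 9 hypoxia members summed to 1292 (95% interval 1249.9 to 1335) in Mtf2 null and 1466 (95% interval 1419 to 1514) in Jarid2 null cells at day 4. Bnip3 was at 59.6, 658, 434 and 552 UMI CPM over the 4 days in Mtf2 null and 132, 823, 474 and 569 in Jarid2 null cells, and Slc16a3 at 8.48, 57.5, 89.3 and 187 and 10.9, 57.5, 65.1 and 93.4. By day 10 Slc16a3 of Mtf2 null cells exceeded WT, at 187 (95% interval 169 to 206) against 134 (95% interval 115 to 154). In Mtf2 null cells 4 of 31 members were past 2-fold at day 4, 1 of 31 at day 7 and 5 of 33 at day 10 (11.7%, 7.91% and 12.5% of all genes). In Jarid2 null cells it was 5 of 31, 3 of 30 and 4 of 31 (14.1%, 11.3% and 14.0%), and in Eed null cells 1 of 32, 2 of 31 and 3 of 33 (17.8%, 12.0% and 16.2%).  P4ha1 of Jarid2 null cells remained lower than WT at each day, at 21.5, 84.4, 78.2 and 150.4, with ratios of 0.476 at day 0 and 0.461 at day 7.

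Pkm and Ankrd37 set genotypes apart on several days in the single cells. Pkm was at 1070.5, 1412, 1199 and 1094 UMI CPM in WT and 1177, 1497, 972 and 852 in Eed null cells, but at 2373, 3011, 2906 and 2934 in Mtf2 null and 2509.7, 3397, 2306 and 2476 in Jarid2 null cells. Its ratio to WT was 2.22 at day 0 and 2.68 at day 10 in Mtf2 null cells, and 2.34 and 2.26 in Jarid2 null cells. In bulk RNA of the UD cells Pkm did not stand out in this way, at 3026 and 2726 CPM in WT, 2080.5 and 2451 in Mtf2 null and 2027 and 1644 in labelled Jarid2 null libraries of the mesoderm series. Ankrd37, which encodes a small ankyrin-repeat protein, was at 47.4, 138, 52.2 and 56.0 in Eed null and 7.36, 24.7, 17.9 and 46.5 in WT cells, with ratios of 6.44 at day 0, 5.57 at day 4 and 2.92 at day 7. Slc2a3 of Eed null cells was at 2148, 4205, 3037 and 1658 against 1620.1, 2467, 2234 and 1784 in WT, above WT on days 0, 4 and 7 by less than 2-fold.

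Across the 22 clusters of the deposited annotation, the 25 glycolytic and lactate members were highest in cluster 9 at 22480 UMI CPM, of which 84.1% of cells came from the Eed null day 4 library, and then in cluster 21 (19662), cluster 2 (19129.6) and cluster 7 (19031.4). They were lowest in cluster 0 (7799), cluster 8 (9112) and cluster 3 (9215), of which 78.2%, 84.2% and 91.6% of cells came from the day 0 libraries of the Mtf2 null, the Jarid2 null and WT. The 9 hypoxia members were lowest in clusters 0 and 8, at 352 and 361 UMI CPM, against 677 in cluster 3. Clusters that are mostly 1 library cannot be told apart from that library, and no test was made between them since the clusters were built from the same cells and genes.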

How the data were processed

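RNA was measured in 48 bulk libraries of directed differentiation, 24 embryoid body samples and 16 single-cell libraries. The members and the lists of further pathway genes and markers were chosen with earlier results of these data known. Per the labels and the study's methods, bulk libraries were made with Kapa Hyper-prep and read on a NextSeq.

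For the directed series, the authors deposited estimated counts per gene from Salmon, which were rounded to whole numbers. For the embryoid bodies, the deposited signal per gene is a read count divided by a DESeq2 size factor, from 1 or 2 columns per sample, which were averaged. Most paired columns carry different replicate and library numbers, and the study describes its bulk RNA-seq replicates as technical. The spread between paired columns was not used in the fits. Whole reads were recovered in 45 of 46 columns (100% of values whole within 0.02), at 3005707 to 22944105 reads per column. For the single cells, the authors deposited UMI counts per gene and cell from SORT-seq, made with Bowtie2 and HTSeq on GRCm38/mm10, together with cluster numbers, and 1339722 to 3889890 UMIs per library were summed over all deposited cells. Doublets were not called, and clusters were not renamed. The number of columns with no matching sample was 0, so none was set aside. The 2 labelled Jarid2 null endoderm columns of 48 h carry another time in the table and were matched to their samples by library and replicate number.

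Directed counts were fitted per series with edgeR 4.0.16 (TMM, filterByExpr at its settings of 10 for counts and 15 for totals, quasi-likelihood test, prior count 2) in R 4.3.3, with 1 group per genotype and time. A gene was called at an adjusted p (Benjamini-Hochberg over all genes) under 0.001 with a log2 fold change above 1 in size, and the SE is the log2 fold change divided by the square root of F. The joint fit of both series held 19601 genes. Embryoid body values were converted to log2 CPM (at least 1 CPM in 4 samples, prior count 2) and tested with limma 3.58.1 at an adjusted p under 0.05, with the day as a block against the matched line and the line as a block between days. All fits ran over all genes tested, from 13789 in the embryoid bodies upward. Single-cell sums have no replicate at a day and were not tested, so a fold above 2 was described for genes with at least 30 UMIs in the 2 libraries compared, and a library under 3 UMIs was set to 3. Fits were tested on simulated data.

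All 34 members may be named. Of the further genes, the 3 of each list with the largest change past the call and at least 5 CPM were eligible, and Eno1b, Mtf2, Jarid2 and Eed were always named. Near-identical gene copies were found with blastn 2.17.0 in the mouse GENCODE transcripts. Promoter windows came from RefSeq on GRCm38.p6, where Slc2a3 and Ndrg1 were not matched. The printed promoters were chosen after the values were seen. Alternatives were DESeq2 1.42.0, library size scaling, no filter, the replicate number as a block, a looser call, each library, day or line left out, another prior count, the deposited scale, edgeR on recovered reads, the pair Eno1 and Eno1b added, and for single cells another scaling and leaving out the 5% of cells with most UMIs. Intervals cover counting error only.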

Additional observations from a re-analysis of the deposited data

Results flagged for a closer look

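The change from UD to 48 h differed from that of WT cells, by edgeR's interaction test, for 28 pairs of a member and a comparison, and 1 member differed between the 2 WT series. Values are log2 differences of the change, null minus WT. In the mesoderm series with Mtf2 null cells they were 1.49 for Slc2a1, 1.20 for Pfkp, 2.18 for Tpi1, 1.25 for Ldha, 2.41 for Slc16a3, 2.46 for Bnip3, 3.53 for Egln3 and 3.18 for P4ha1. With the labelled Jarid2 null they were 1.61 for Slc2a1 and 1.41 for Tpi1.

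In the endoderm series with Mtf2 null cells they were 1.11 for Slc2a1, 1.11 for Slc2a3, 2.29 for Pfkfb3, 1.42 for Tpi1, 1.34 for Slc16a3, 2.18 for Bnip3, 2.90 for Egln3, 2.75 for Ndrg1 and 3.22 for P4ha1. Pfkm and Pdk1 had negative values of -1.67 and -1.68. With the labelled Jarid2 null they were 1.29 for Pfkp, 1.08 for Tpi1, 2.04 for Slc16a3, 1.58 for Bnip3, 1.93 for Egln3, 2.88 for Ndrg1 and -1.65 for Vegfa. Between the WT series, the change of Slc2a3 was higher by 1.12 in mesoderm than in endoderm. The UD libraries of the 2 series are not treated as independent, so a value found in both series was not counted as found again.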

How the results depend on the processing

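With 2 libraries per group, described as technical duplicates, and lines that differ from E14, the directed p-values carry no estimate of variation between cultures or lines. At an adjusted p under 0.05 with no fold limit, the WT steps (5 h against UD, 24 h against 5 h, 48 h against 24 h, 48 h against UD) gave 22, 13, 17 and 26 members in the mesoderm series and 23, 9, 21 and 26 in the endoderm series. Mtf2 null against WT (UD, 5 h, 24 h, 48 h) gave 23, 17, 12 and 18 and then 24, 17, 12 and 17. The labelled Jarid2 null gave 22 at UD, 21 at 24 h and 1 at 48 h, and then 23 at UD and 7 at 48 h. Interactions gave 24 (Mtf2) and 13 (Jarid2), and then 23 and 16, and the joint fit 14. Of all genes, 36.6%, 26.6%, 22% and 35.4% passed that looser rule for the mesoderm WT steps. For the endoderm WT steps it was 30.2%, 18.5%, 19.5% and 34.9%. Mtf2 null had 39.2%, 28.7%, 22.8% and 27.9%, and then 40.6%, 31%, 26.2% and 38%. The labelled Jarid2 null had 6.62%, 23.2% and 2.21%, and then 9.32% and 7.22%. Interactions had 18.1% and 1.77%, and then 22% and 5.62%, and the joint fit 5.85%. DESeq2 called 4 members for mesoderm WT 24 h against 5 h, 2 for mesoderm Mtf2 null at 24 h, 7 for the mesoderm Jarid2 interaction, 3 for endoderm Jarid2 null at 48 h and 3 in the joint fit. Without a filter on low counts these were 5, 2, 9, 3 and 4, and mesoderm Jarid2 null at 24 h gave 4. Scaling by library size alone moved no count by over 1.5 times. Replicate numbers did not pair the libraries (median correlation of replicate differences 0.00688 and 0.0102). With the replicate block the joint fit gave 2 and the mesoderm Jarid2 interaction 1, and no other count moved by over 1.5 times.

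Leaving out single libraries gave these ranges. For the WT steps in the order above they were 11 to 12, 2 to 2, 2 to 4 and 13 to 18 in the mesoderm series, and 12 to 13, 2 to 4, 3 to 5 and 13 to 15 in the endoderm series. Mtf2 null gave 7 to 9, 3 to 4, 1 to 1 and 3 to 5, and then 9 to 11, 3 to 4, 1 to 3 and 8 to 12. The labelled Jarid2 null gave 3 to 11, 0 to 0, 0 to 1 and 0 to 1, and then 7 to 12, 0 to 0, 0 to 0 and 0 to 2. Interactions gave 7 to 11 (Mtf2) and 1 to 5 (Jarid2), and then 9 to 13 and 1 to 7, and the joint fit 0 to 3. Over single members, 4437 values stayed on their side of the call in these refits, 131 lost it, 56 gained it, and 0 called values changed direction.

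In embryoid bodies, no block for the day left 0, 0 and 0 members for the labelled Mtf2, Jarid2 and Eed nulls, no filter left 1, 3 and 2, and the values without a day were 1 (days 0, 4, 7), 2, 2 and 1 (days 2, 4, 7) and 0 (each day). For the WT days, no block for the line gave 0 (day 2 against 0) and 7 (day 4 against 2). Day 2 against 0 gave 4 without day 4, 4 without J1, 0 without JM8 and 2 without Pcl1-3 WT. Day 4 against 2 gave 0 without JM8, and day 7 against 4 gave 1 without Pcl1-3 WT. In single cells, leaving out the cells with most UMIs gave 3 for Mtf2 null and 1 for Eed null cells at day 7, and median-ratio scaling gave 8 for Jarid2 null cells at day 4. With Eno1 and Eno1b added, Mtf2 null minus WT turned to -0.00587 at 24 h and -0.0163 at 48 h in the mesoderm series and to -0.572 at UD and -0.477 at 48 h in the endoderm series. The labelled embryoid body nulls turned to 0.0132 (Mtf2) and 0.0625 (Jarid2). The cause of the other moves was not tested.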
